A study of Mus musculus with 16 samples.

Results

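The genes described here are 39 genes of the interferon response, followed through the open chromatin of mouse hematopoietic stem cells (HSCs). Peaks of the 16 ATAC-seq libraries that overlapped were merged, a region was kept where 2 or more libraries called it, and it was given to its nearest protein-coding gene within 100 kb. By this rule 77 of 33773 regions belonged to the listed genes. Of the 39 genes, 37 are protein coding in the gene table used (RefSeq, GRCm38.p6) and 34 of these received at least 1 region. Mx1 and Mx2 are pseudogenes in that table, and Stat2, Eif2ak2 and Ifit1 received no region because another gene lay nearer.

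ATAC-seq marks open DNA by the cuts of a transposase, and each library was deposited as its own list of peaks. Male B6 donors were 8 to 12 weeks old (young) or 24 months old (old), and 10000 HSCs were taken from them before transplantation (pre). A young replicate pooled the marrow of 3 to 4 mice, while an old replicate was a single mouse. From the same donors 1000 HSCs went into each set of 5 lethally irradiated young BJ recipients together with 300000 Sca-1 depleted BJ helper marrow cells, and after 3 months 10000 HSCs were collected from the pooled marrow of those recipients (post). The 4 groups, young pre, old pre, young post and old post, have 4 libraries each, and pre and post libraries of the same age and number share donors. No label states a sort of post cells by donor origin, so BJ cells of the recipient or helper marrow cannot be told apart from donor cells in the post libraries. Pre and post libraries were also transposed on different days, so stage and transposition day cannot be told apart.

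Type I interferon binds a receptor made of Ifnar1 and Ifnar2, and the attached kinases activate a factor complex that holds Stat2 and Irf9 and binds the interferon-stimulated response element (ISRE) in the promoters of the response genes. Interferon gamma acts through the gamma-activated site (GAS) and induces factors such as Irf1. In the bone marrow, interferon is known to drive quiescent HSCs into cycle for a time, and stem cells are known to keep some antiviral genes active without infection.

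The lists ranged from 5711 peaks (old pre 4) to 32557 (young post 1), and their lengths set how many regions a library could call. The 4 young post lists were of similar length (30807 to 32557), whereas the other groups spanned 9636 to 28323 (young pre), 5711 to 30541 (old pre) and 14030 to 31025 (old post). The 3 shortest lists were old pre 4, young pre 4 and old post 4. A region without a peak in a library was therefore read as not called and not as closed. Of 11 HSC markers 9 had a region (Ly6a and Tek had none), and 4 had a gene-end region called in at least 13 libraries. The defining markers Cd79a and Ms4a1 of B cells, Cd3e, Cd3g, Cd4, Cd8a and Ncr1 of T and NK cells, and Elane, Mpo, S100a8 and Ly6g of granulocytes and monocytes had no region. A region was present at 3 of 6 B cell, 2 of 7 T and NK cell and 3 of 7 granulocyte and monocyte markers, and a gene-end region called in at least 13 libraries at 1, 0 and 0 of them. Of 6 erythroid and 5 endothelial or stromal markers 5 and 4 had a region, and 1 and 0 had a gene-end region called in at least 13 libraries.

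Promoter sequences of the response genes were searched for the ISRE and the GAS. They were taken from RefSeq on GRCm38.p6 as 250 bases before to 50 bases after the transcription start, and 32 of the 37 protein-coding genes had an entry. The ISRE core was searched as GAAA, any 2 bases and GAAA on both strands, so that it reads as a pair of TTTC on the other strand, and the GAS core as TTC, any 3 bases and GAA, with overlapping matches merged in the sequences printed. The ISRE core was present in 16 of the 32 promoters, against 579 of all 17274 promoters (3.35%). The GAS core was present in 11 of 32 (34.4%), against 7.73% of all promoters. A match is a description of the sequence and not evidence of a bound factor.

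Upstream sequences of 3 genes are shown because their promoters span the range of calls, each for the 250 bases before the start, read from 5′ to 3′ on the gene's strand, with ISRE cores in capitals. Bst2 (chr8:71537473-71537722, minus strand) is a promoter called open in all 16 libraries, Isg15 (chr4:156200819-156201068, minus strand) holds 3 overlapping cores and was called in 11, and Ifit3 (chr19:34583279-34583528, plus strand) holds 2 separate cores and was called in 10.
Bst2: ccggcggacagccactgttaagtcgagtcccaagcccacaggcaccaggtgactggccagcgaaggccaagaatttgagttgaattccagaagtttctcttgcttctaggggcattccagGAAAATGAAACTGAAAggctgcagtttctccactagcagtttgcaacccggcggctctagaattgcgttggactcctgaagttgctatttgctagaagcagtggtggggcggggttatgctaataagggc
Isg15: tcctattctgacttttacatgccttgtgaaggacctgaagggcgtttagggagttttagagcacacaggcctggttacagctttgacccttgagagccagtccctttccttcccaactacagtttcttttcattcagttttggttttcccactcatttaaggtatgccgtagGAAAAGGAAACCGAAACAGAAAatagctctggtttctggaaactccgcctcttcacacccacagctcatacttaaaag
Ifit3: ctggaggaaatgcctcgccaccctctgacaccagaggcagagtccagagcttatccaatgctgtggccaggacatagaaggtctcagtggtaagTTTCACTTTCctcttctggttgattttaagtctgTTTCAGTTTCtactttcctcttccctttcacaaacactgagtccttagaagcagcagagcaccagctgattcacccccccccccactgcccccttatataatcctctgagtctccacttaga

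The remaining 13 promoters with an ISRE core are shown as windows of 30 bases around their cores, again on the gene's strand with the cores in capitals, to let the spacing and orientation of the repeats be compared. The windows are chr10:128270266-128270295 and chr8:46739495-46739524 for the factors, chr4:40239804-40239833, chr2:62646206-62646235 and chr17:78882535-78882564 for the sensors, and chr7:102565447-102565476 for the ubiquitin ligase. For the effectors they are chr19:34640785-34640814, chr7:141010714-141010743, chr5:120907523-120907552, chr5:120777715-120777744, chr12:26456553-26456582, chr3:142620594-142620623 and chr3:142559992-142560021. Stat2, Irf2, Ifit1, Gbp2 and Gbp3 lie on the plus strand and the others on the minus strand.
Stat2: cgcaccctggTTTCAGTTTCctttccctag
Irf2: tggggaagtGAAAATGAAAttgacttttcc
Ddx58: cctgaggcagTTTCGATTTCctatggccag
Ifih1: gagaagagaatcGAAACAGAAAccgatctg
Eif2ak2: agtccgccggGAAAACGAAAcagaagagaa
Trim21: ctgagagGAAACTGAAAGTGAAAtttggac
Ifit1: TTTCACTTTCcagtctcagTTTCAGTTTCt
Ifitm3: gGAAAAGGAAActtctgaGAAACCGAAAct
Oas1a: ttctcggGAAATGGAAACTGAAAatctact
Oas3: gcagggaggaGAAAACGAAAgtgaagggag
Rsad2: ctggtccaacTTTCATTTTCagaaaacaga
Gbp2: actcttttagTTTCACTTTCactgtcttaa
Gbp3: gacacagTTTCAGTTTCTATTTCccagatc

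The pattern of the core differed between genes. Gbp3, Oas1a and Trim21 held overlapping cores that share a GAAA, as Isg15 and Bst2 did, whereas Ifit1, Ifit3 and Ifitm3 held 2 separate cores. In Ifih1, Ddx58, Eif2ak2, Trim21 and Ifitm3 the core lay just downstream of the annotated start, and in Irf2 and Stat2 it lay far upstream, from positions -241 and -222 relative to the start.

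Both receptor genes were open at their gene ends, meaning within 1 kb of either end of the gene. The Ifnar1 gene-end region (chr16:91484337-91485912) was called in 16 of 16 libraries, and so was a region 20016 bp outside the gene. A further Ifnar1 region 12.1 kb away was called in 15. Ifnar2 had 4 regions, of which the gene-end region (chr16:91372351-91373777) and those 5.57 and 18.1 kb away were each called in 15, in all libraries but old pre 4. The fourth Ifnar2 region, 35.9 kb away, was called in 5 libraries, namely 1 young pre, 3 young post and 1 old post. Together the 7 receptor regions held 25 of 28 possible calls in young pre, 20 in old pre, 27 in young post and 25 in old post. These counts are not corrected for list length: of all regions, old pre 4 called 15.8% and young post 1 called 90.7%.

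The transcription factor genes held 19 regions, of which 12 belonged to Irf2 and 5 to Irf1. Irf1, an activator of response genes, had its gene-end region (chr11:53769269-53772263) and a region 6.32 kb outside called in all 16 libraries, a pair of regions called in 13 and 15, and a weak one 8.45 kb away called in 5. Irf2, which binds the same element and restrains Irf1, was open from its gene-end region (chr8:46738104-46740734) to regions up to 41.3 kb beyond the gene. The gene-end region and the one 22.2 kb beyond the gene were called in 16 libraries, whereas the other 10 ranged from 2 to 15. Irf9, the DNA-binding part of the complex with Stat2, had a single gene-end region (chr14:55603550-55605186) called in 16 of 16. Irf7, which amplifies interferon production, had a region inside the gene (chr7:141264455-141266771) called in 14, all but young pre 4 and old pre 4. The Stat2 promoter was covered in 16 of 16 libraries by a region (chr10:128270065-128271148) that the rule gave to Apof.

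Among the nucleic acid sensors, Ifih1 (MDA5, which binds long double-stranded RNA) had a gene-end region (chr2:62645314-62647052) called in all 16 libraries. Ddx58 (RIG-I, which binds viral RNA ends) and Zbp1 (which binds Z-form nucleic acids and can start necroptosis) had gene-end regions at chr4:40238683-40240701 and chr2:173218554-173219960. Both were called in the same 14 libraries, all but young pre 4 and old pre 4. Ifih1 had another pair of regions inside the gene, called in 7 and 9 libraries, and Ddx58 had one inside the gene (6 libraries) and one 4.41 kb outside (11 libraries). The promoter of Eif2ak2 (PKR, the kinase that halts translation on double-stranded RNA) was covered in 15 libraries, all but old pre 4, by a region (chr17:78881522-78883063) given to Gm26637.

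The antiviral effectors were the largest group, with 27 regions at 15 genes, and ranged from open in every library to hardly called. Called in 16 of 16 were gene-end regions of Bst2 (tetherin, which holds virions on the cell surface; chr8:71536877-71538182), Cmpk2 (a mitochondrial nucleotide kinase; chr12:26468630-26470335), Gbp3 (a guanylate-binding protein; chr3:142559697-142561519) and Samhd1 (which depletes deoxynucleotides; chr2:157133874-157135717). A region inside Oas3 (chr5:120775083-120776132) and one 18.8 kb from Ifitm3 were also called in all 16. The Ifit2 gene-end region (chr19:34550256-34551470) was called in 15, and those of Rsad2 (viperin; chr12:26455864-26457005) and Ifitm3 (which blocks viral fusion; chr7:141008236-141009502) in 14. This Ifitm3 region lay 388 bp from the gene, and the one over the Ifitm3 promoter (chr7:141010090-141011516) was called in 13. The promoter of Ifit1, an RNA-binding relative of Ifit2, was covered in 14 libraries by a region given to Ifit1bl2.

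Other effector genes were called in fewer libraries at their ends. Gene-end regions of Oasl1 and Oasl2, relatives of the Oas genes, were called in 13 libraries each, of Gbp2 in 12, of Ifit3 and Oas3 in 10, of Oas1a in 9 and of Oas2 in 2. The Oasl1 region called in 13 lay 920 bp from the gene, and the one over its promoter (chr5:114922890-114923568) was called in 5. Oas1a, Oas2 and Oas3 encode the synthetases whose oligoadenylate product activates RNase L. The Oas1a region (chr5:120906922-120907832) was called in young pre 1, old pre 1 and 2, all 4 young post libraries and old post 2 and 3. The libraries without it, young pre 2 to 4, old pre 3 and 4 and old post 1 and 4, had shorter lists than each of those with it. The Ifit3 region (chr19:34583074-34583679) was called in young pre 1 and 2, old pre 1 and 2, all 4 young post and old post 2 and 3. Ifi44 had 1 region, inside the gene, called in young post 1 and 4 only.

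The enzymes of ubiquitin, Isg15 and ADP-ribose transfer held 11 regions at 7 genes. Usp18, which removes Isg15 from proteins and restrains receptor signalling, had a gene-end region (chr6:121244783-121246234) called in 16 of 16, as did Trim25, a ubiquitin ligase of the Ddx58 pathway (chr11:88998883-89000985). The region shared by the divergent starts of Parp9 and its partner Dtx3l (chr16:35937994-35940291) was called in 16 of 16. Trim21, a cytosolic antibody receptor, was called at its gene end in 15 and Parp14 in 13. The gene-end region of Isg15, the ubiquitin-like protein itself (chr4:156200584-156201350), was called in 11, namely young pre 1 and 3, old pre 1 and 2, all 4 young post and old post 1 to 3. Of the other induced genes, gene-end regions were called in 15 libraries at Ifi35, 13 at Xaf1, a partner of the apoptosis inhibitor XIAP, and 12 at Sp100, a nuclear body protein.

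**Figure D1:**
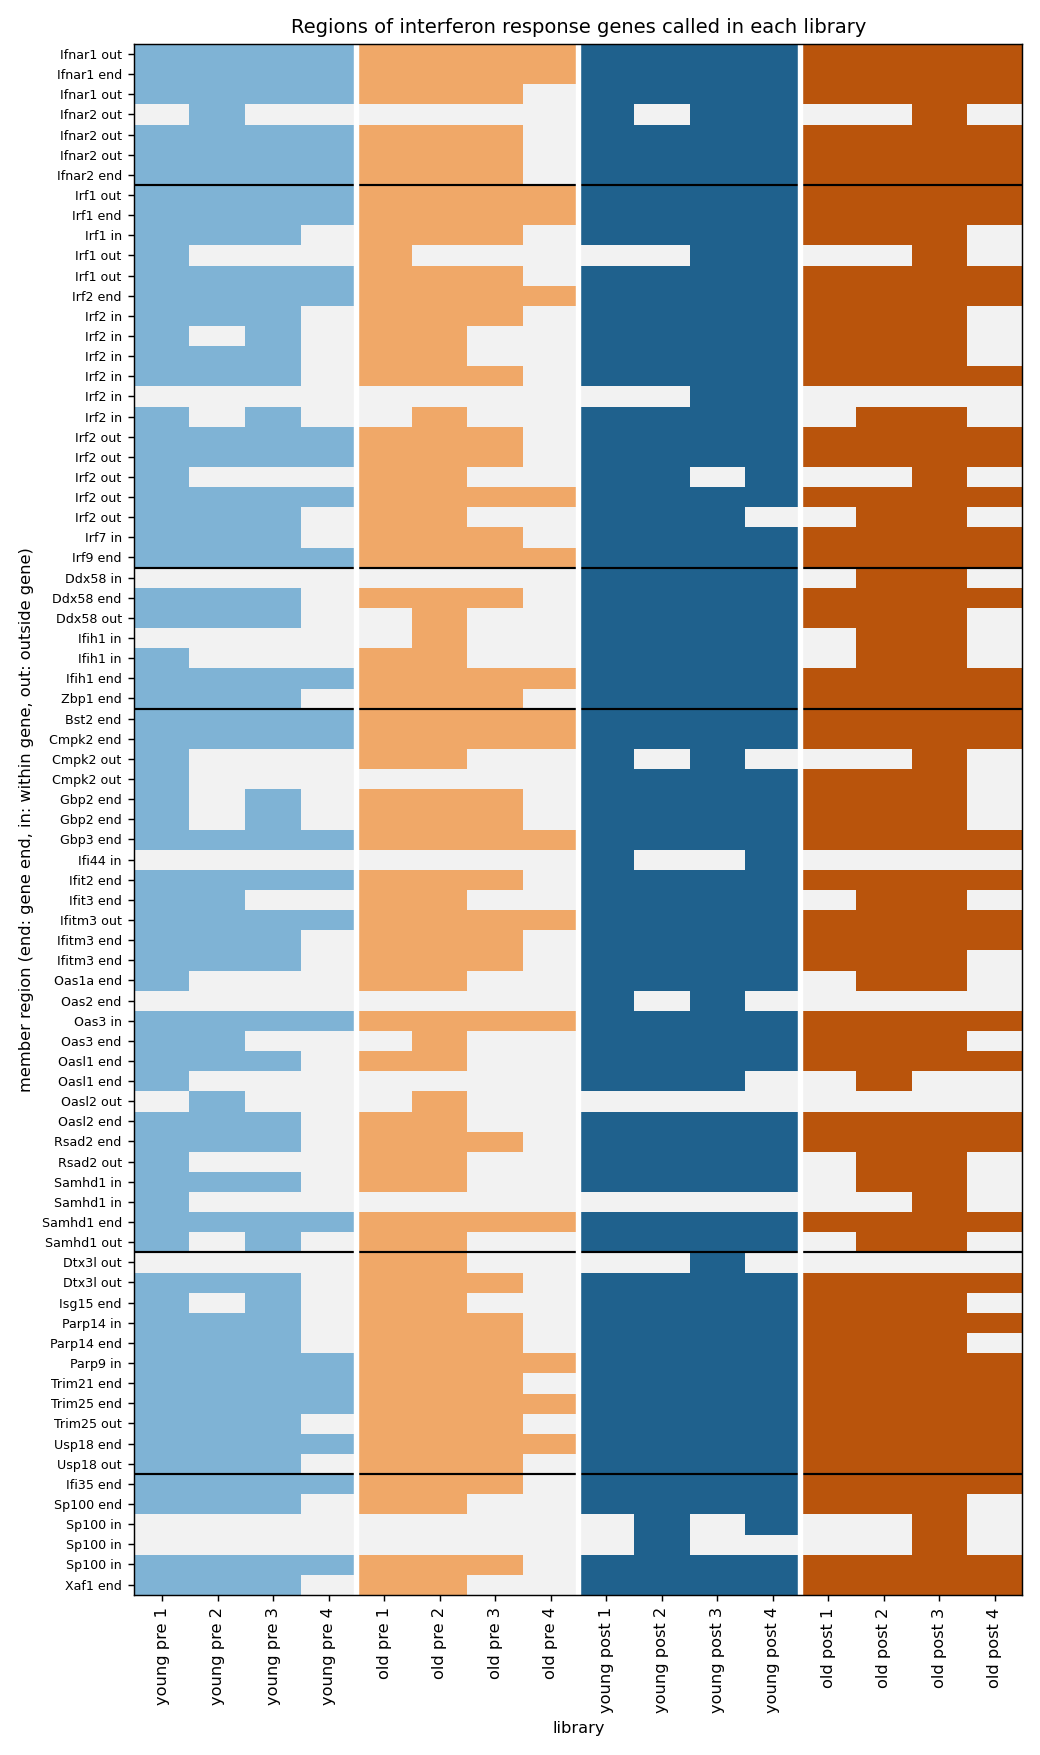
Each line is 1 of the 77 regions, ordered by the gene's role (receptors, transcription factors, sensors, effectors, enzymes, other genes) with black lines between roles, and each column is 1 of the 16 libraries. Filled cells mark a call, coloured by group. Regions at the gene end, inside and outside the gene are named end, in and out. Old pre 4 called 17 of the regions and young post 3 and old post 3 called 71.

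Peak strength within a list also varied by gene. Peaks were ranked in each list by the caller's area, which grows with both width and height, and a percent rank near 0 is a strong peak. A peak of an Irf1 region was the strongest of all peaks at the listed genes in 16 of 16 lists, at percent ranks of 1.44 to 5.56. The median percent rank of the gene-end region over the lists that called it was 8.70 for Irf2, 12.2 for Ifnar1 and 12.5 for Cmpk2. It was 65.4 for Isg15, 73.5 for Ifit3, 75.4 for Oas1a and 89.5 for Oas2, the weakest. By this median Irf2, Ifnar1 and Cmpk2 sat in the strong part of the lists and the last 4 genes in the weak part. Ranks from lists of different length are not comparable between groups and were used only to order genes.

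As a list, the regions differed from all regions in where they lay and how often they were called. Of the 77 regions 33 (42.9%) were at gene ends, against 32.2% of all regions, and 20 (26.0%) lay within genes, against 39.9%. Regions called in all 16 libraries numbered 17 (22.1%), at 14 genes, against 15.6% of all regions. At gene ends the share called in 16 was 33.3%, against 31.7% of all gene-end regions, and elsewhere it was 13.6%, against 7.93%. The median region was called in 13 libraries and was 1050 bp wide, against 12 libraries and 830 bp over all regions. At gene ends the order was reversed, with a median of 14 libraries against 15, and elsewhere it was 11.5 against 10. No test was made, since the list was chosen as a list. The count called in 16 depends on the shortest list: all 17 regions that old pre 4 called were called in 16, as were 98.8% of all regions it called. In the 13 libraries left without the 3 shortest lists, 42 of the 77 regions (54.5%) were called in every library, against 42.9% of all regions.

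The promoters of the listed genes were more often open than promoters at large, while holding fewer CpG dinucleotides. Of 32 promoters 31 (96.9%) were overlapped by a region, the exception being Ifi44, against 9683 of 17274 (56.1%). A region called in all 16 libraries overlapped 12 (37.5%), against 22.4%. Their median CpG number was 7.5 in 300 bases, against 15 for all promoters. Among the 12 promoters called in 16 libraries the median was 17.5, among the 12 called in 13 to 15 it was 6, and among the 7 called in 2 to 12 it was 3. Over all genes the medians in the same classes were 23, 22 and 18, and it was 4 for promoters without a region. Across genes the number of calls and of CpG had a Spearman rho of 0.653 over the 32 promoters and 0.595 over all 17274, which share the same 16 libraries.

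Irf1 with 32 CpG, Samhd1 with 29, Ifnar1 with 26 and Stat2 with 22 were the promoters richest in CpG and were called in 16 of 16 libraries. Some promoters stood apart from this order. Trim21 and Ifi35 had 3 CpG each and were called in 15 libraries, whereas Oasl1 had 8 and was called in 5. Gbp3 was called in 16 of 16 with 2 CpG, whereas Gbp2, its neighbour on chromosome 3, also had 2 and was called in 12. The summit of the Gbp3 region lay 724 bp downstream of the start, and that of Gbp2 75 bp upstream. Any overlap counts as a call, so the Gbp3 promoter itself need not be open in every library. The ISRE promoters called least, Oas1a, Ifit3, Oas3, Isg15 and Gbp2, had 3, 1, 3, 6 and 2 CpG. Promoters with an ISRE core were called in a median of 14 libraries, and those without in 15. The core was present in 5 of the 12 promoters called in 16 libraries, 6 of the 12 called in 13 to 15 and 5 of the 7 called in 2 to 12.

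**Figure D2:**
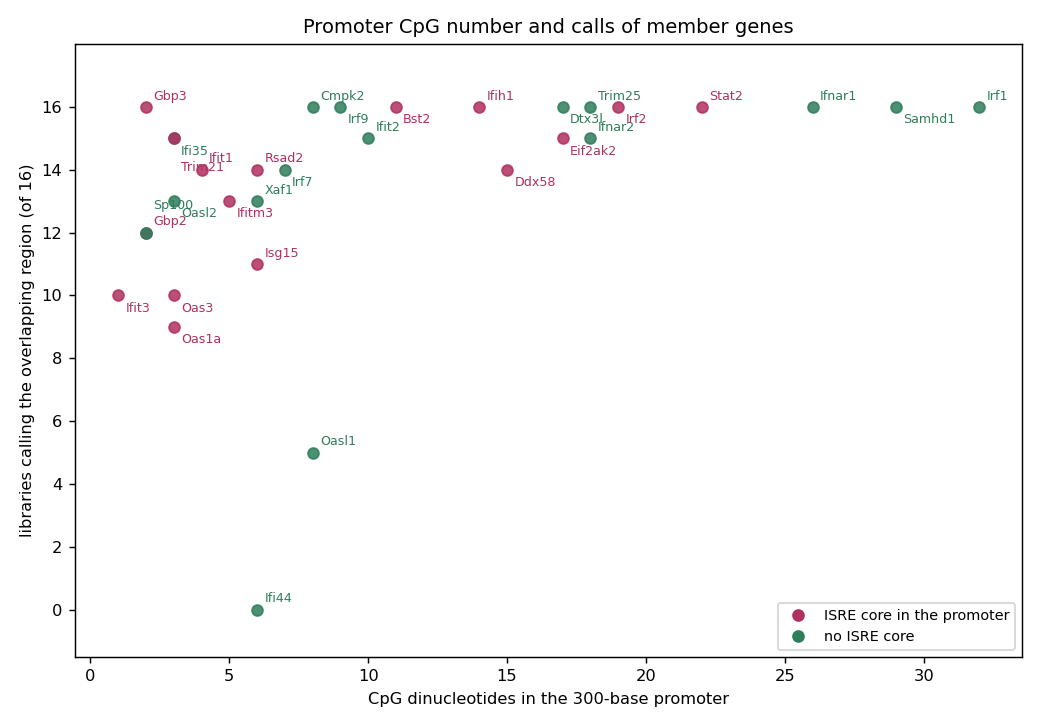
Each point is 1 of the 32 promoters, placed by its CpG number in 300 bases and by the number of libraries (of 16) that called the overlapping region, and coloured by whether it holds the ISRE core. Promoters with more than 20 CpG sit at 16 calls, and those at 9 to 12 calls have 1 to 6.

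To compare groups whose lists differ in length, each library's share of the 77 regions called was set beside the share expected from all regions with the same number of calls over the 16 libraries. The score is the called minus the expected share in percentage points, and the scores of the 16 libraries add to 0, so that a higher score in one group means a lower one elsewhere. The share called was 87.0, 70.1, 72.7 and 36.4% for young pre 1 to 4, and 80.5, 85.7, 57.1 and 22.1% for old pre 1 to 4. It was 90.9, 88.3, 92.2 and 89.6% in young post and 70.1, 84.4, 92.2 and 53.2% in old post. The expected shares tracked these values closely, and the score stayed between -3.61 (old post 1) and 3.79 (young pre 3) in every library.

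**Figure D3:**
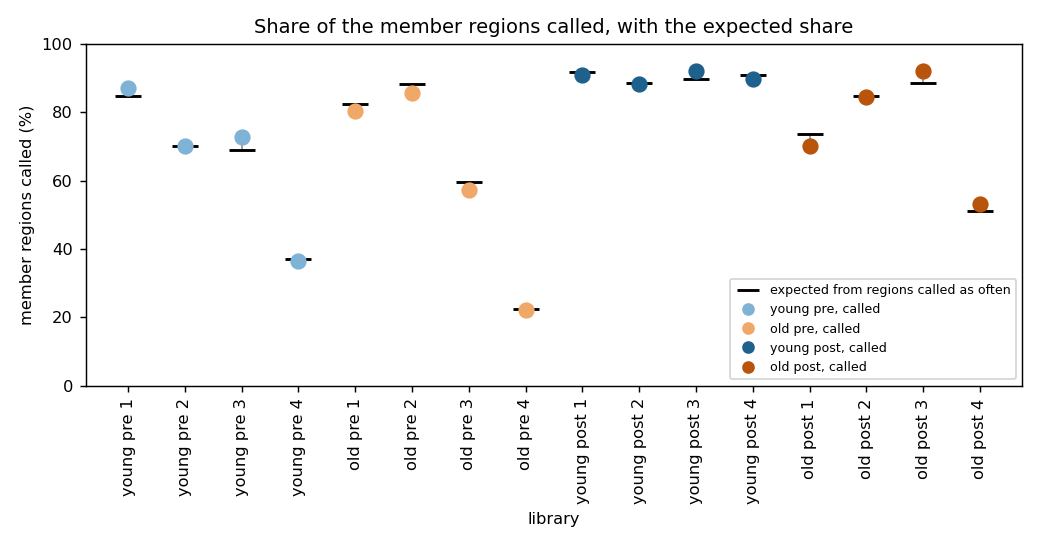
Points give the share of the 77 regions called in each of the 16 libraries, in percent, coloured by group, and bars give the share expected from all regions called as often. The called share runs from 22.1% in old pre 4 to 92.2% in young post 3 and old post 3, and stays within 4 percentage points of the expected share in each library.

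Before transplantation, the question is how the stem cells of old mice differ from those of young mice. The old pre libraries had scores of -1.96, -2.46, -2.41 and -0.252 and the young pre libraries 2.19, -0.0876, 3.79 and -0.557. The means were -1.77 ± 1.04 and 1.33 ± 2.03 percentage points (SD, n = 4 each), a difference of -3.10, and the groups overlapped through the pre 4 libraries of both ages. By gene, 12 of 34 scored higher and 18 lower in old than in young cells, against 39.7 and 45.5% of all 13891 genes. On the libraries of transposition days that hold both ages, the difference was -3.29.

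No region of the list was called as different between old and young pre cells. The exact test asks, for a region called in 3 to 5 of the 8 libraries, how likely its split between the groups is when each library is weighted by how readily it calls regions. Of 21 regions tested none had an adjusted p under 0.05 and none an unadjusted p under 0.05. Fisher's exact test also called none, but with 4 libraries per side it can hardly pass the adjustment. Its lack of calls therefore decides nothing in any comparison of 4 against 4 libraries. Over all 9407 regions tested, 0% were called and 2.29% had an unadjusted p under 0.05. The smallest p belonged to the Ddx58 region 4.41 kb outside the gene (chr4:40244152-40244460), which was called in young pre 1, 2 and 3 and in old pre 2 (exact p = 0.0665, adjusted p = 0.999). Among regions higher in old, the first was the Gbp2 gene-end region, called in old pre 1, 2 and 3 and in young pre 1 and 3 (exact p = 0.229, adjusted p = 0.999). No member region was called in all libraries of one age and none of the other, as was true of 0% of all regions. The same held with the stages pooled (0% of all regions).

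After transplantation the scores of old and young cells overlapped, and the old libraries were more spread. Old post libraries had scores of -3.61, -0.281, 3.49 and 2.25 and young post libraries -0.874, -0.232, 2.35 and -1.35, with means of 0.462 ± 3.13 and -0.0260 ± 1.65 (SD, n = 4 each). The difference of 0.488 was smaller than either SD, and it was 2.89 on the transposition days that hold both ages. By gene, 16 of 34 scored higher in old and 10 lower, against 36.4 and 39.5% of all genes. Fisher's exact test called none of 7 regions tested, but with 4 libraries per side it could hardly call any. By the exact test none of these 7 was called and none had an unadjusted p under 0.05. Of all 5163 regions tested by it, 0.465% were called and 1.84% had an unadjusted p under 0.05. The smallest p was 0.413 (exact; adjusted p = 1), at the Irf2 region 41.3 kb beyond the gene. Of all 5163 regions tested 0 had an unadjusted p under 0.05 toward fewer old calls, so the test could hardly show a loss in old cells. No region of the list was open in all of one age and none of the other, against 1.52% of all regions.

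With the stages pooled, 8 old and 8 young libraries had mean scores of -0.654 ± 2.47 and 0.654 ± 1.86 (SD), a difference of -1.31. The pooled fit counts both libraries of a donor as independent. It called none of 24 regions, none at an unadjusted p under 0.05 and none by Fisher's exact test, beside 0.270% of all 15182 regions called and 4.56% at an unadjusted p under 0.05. The smallest exact p was 0.240 (adjusted p = 1), at the Gbp2 gene-end region, called in 6 of 8 libraries of each age. Of the 34 genes 15 scored higher and 15 lower in old cells, against 36.8 and 48.4% of all genes. On shared transposition days alone the difference in score was -0.0576.

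In young cells, the comparison of post with pre libraries asks what 3 months in a recipient leave behind. The share of the 77 regions called was 90.3 ± 1.68% post and 66.6 ± 21.5% pre (SD, n = 4 each), while the expected shares were 90.3 ± 1.40% and 65.2 ± 20.2%. The score accordingly differed by -1.36. By donor it was lower post than pre in each pair, by -3.06, -0.144, -1.44 and -0.791 in donors 1 to 4. The mean difference was less than the SD of the pre libraries, a spread that leaves out the pairing. By gene, 15 scored higher and 15 lower, against 41.5 and 43.7% of all genes. Fisher's exact test called none of 11 regions tested, but with 4 libraries per side it could hardly call any. By the exact test none of these 11 was called and none had an unadjusted p under 0.05. Of all 8867 regions tested by it, 0.744% were called and 3.41% had an unadjusted p under 0.05. Of these 8867 regions 0 had an unadjusted p under 0.05 toward more post calls, even with calls in all post and no pre libraries. The test could therefore show only fewer post calls in young cells, and a gain could not be called. A region inside Ddx58 (chr4:40233108-40233552, 6595 bp from the nearer gene end) and one inside Ifih1 (chr2:62639737-62640152, 6179 bp from it) had calls in all 4 young post and in 0 young pre libraries. Of all regions 7.13% showed this pattern, all 4 young post lists were longer than any young pre list, and both regions had an exact p of 0.480 (adjusted p = 1). Without young pre 1, the longest young pre list, 6 of 76 regions of the list showed it, beside 17.1% of all 33603 regions kept then.

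In old cells the shares called were 75.0 ± 17.1% post and 61.4 ± 29.0% pre, and the post minus pre score was -1.65, 2.18, 5.90 and 2.50 in donors 1 to 4. The mean difference was 2.23, and 20 of 34 genes scored higher and 10 lower, against 51.4 and 33.8% of all genes. Fisher's exact test called none of 18 regions tested, but with 4 libraries per side it could hardly call any. Of all 10384 regions tested by the exact test, 0.00963% were called and 4.87% had an unadjusted p under 0.05. Of the 18 regions the exact test called none, and 1 had an unadjusted p under 0.05. That region lay 45.2 kb outside Cmpk2 (chr12:26524951-26525383) and was called in old post 1, 2 and 3 and in none of the old pre libraries (exact p = 0.0287, adjusted p = 0.589). In young cells it was called in pre 1 and in all 4 post libraries. None of the 77 regions was called in all old post and no old pre libraries or the reverse, as was true of 0.0118% of all regions.

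With both ages pooled, post and pre libraries differed in score by 0.436. Of 24 regions tested none was called by the exact test, 1 had an unadjusted p under 0.05, and Fisher's exact test called none. Of all 15182 regions the exact test called 0.402%, and 5.62% had an unadjusted p under 0.05. Of the regions called 1 was higher post and 60 lower, and at an unadjusted p under 0.05 these were 274 and 579. The test rarely called a gain, so its lack of calls toward post decides little. The Irf2 region 41.3 kb beyond the gene (chr8:46888385-46889115) had calls in 5 of 8 libraries of each stage, fewer post calls than the longer post lists predict (exact p = 0.0408, adjusted p = 0.710). The region inside Ddx58 had 6 calls among the 8 post libraries and 0 among the 8 pre (exact p = 0.0588, adjusted p = 0.710). The Cmpk2 region 45.2 kb outside the gene had 7 post calls and 1 pre call (exact p = 0.0900, adjusted p = 0.918). No region of the list was called in every library of one stage and in none of the other, as was true of 0.00296% of all regions.

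**Figure D4:**
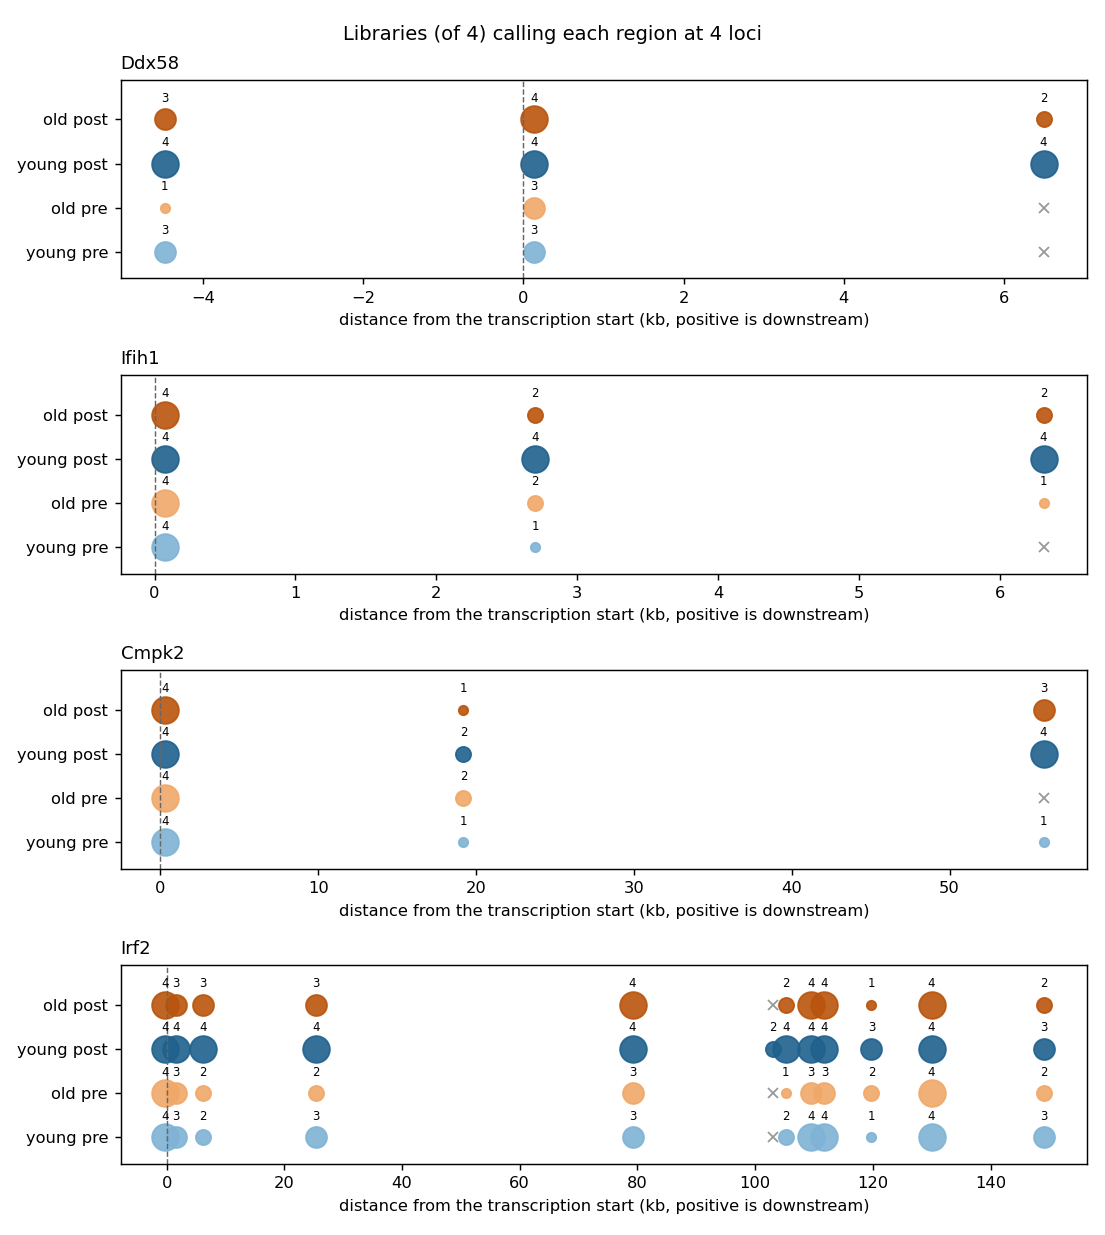
For Ddx58, Ifih1, Cmpk2 and Irf2, each region is placed by its distance from the transcription start in kb (dashed line, positive downstream), and the size and number of a point give how many of 4 libraries called it in each group, with a cross for 0. Gene-end regions are called in 3 or 4 libraries of each group. The region inside Ddx58 and the inner one of Ifih1 are called in 4 of 4 young post libraries but 0 of 4 young pre. Of all regions 7.13% show this pattern, and all 4 young post lists are longer than any young pre list.

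Among the 6 groups of genes by role, the sensors were the one whose score was higher post than pre in every donor, a feature singled out after its values were seen and not tested. The 7 regions of Ifih1, Ddx58 and Zbp1 were called 14 times of 28 in young pre, 14 in old pre, 28 in young post and 21 in old post. In young donors 1 to 4 the score was higher post than pre by 12.95, 7.19, 2.17 and 5.15 percentage points, and in old donors by 12.6, 11.46, 8.42 and 1.16. The mean over the 8 donor pairs was 7.64 ± 4.57 (SD). The score was higher post in 7 of 8 pairs for receptors (mean 0.189), 6 of 8 for the other induced genes (11.6), 4 of 8 for effectors (0.194), and 2 of 8 each for transcription factors (-4.02) and enzymes (-1.76). In the full lists most of the difference lay away from the gene ends: the 3 gene-end regions held 20 of 24 possible calls pre and 24 post (a score difference of 0.814), and the other 4 regions, all at Ifih1 and Ddx58, held 8 of 32 pre and 25 post (12.8). Of these 4, the region inside Ddx58 (0 pre calls) and the inner one of Ifih1 (1 pre call) met the minimum of 2 libraries only through post libraries. In lists shortened to the 14008 strongest peaks the picture was the other way round, since none of those 4 regions was left. The 3 gene-end regions then carried the whole difference of 24.5, with Ifih1 called in 16 libraries, Ddx58 in 14 and Zbp1 in the 8 post libraries. No transposition day held both stages, so no within-day value can be given.

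**Figure D5:**
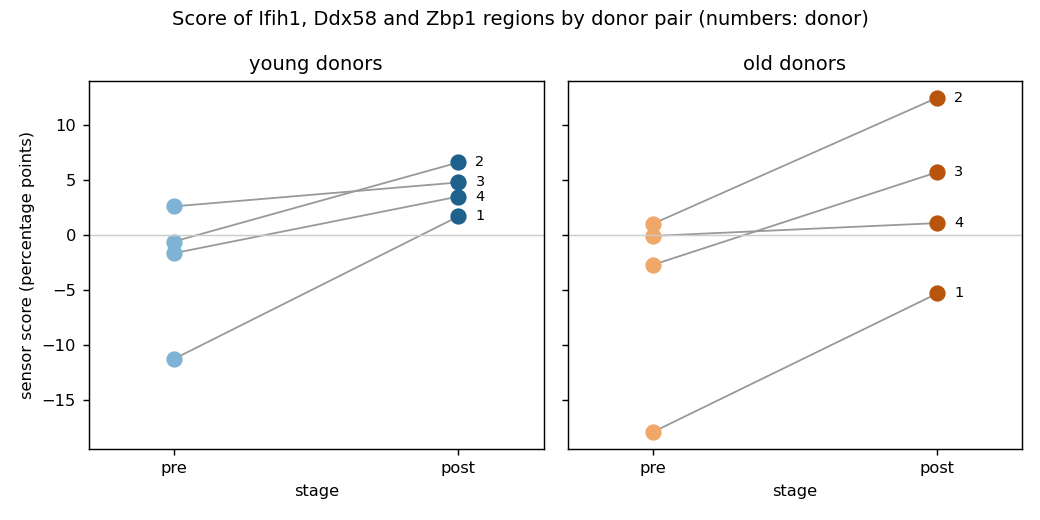
Lines join the pre and post library of each donor, young on the left and old on the right, with donor numbers beside the post points, and the vertical axis is the score of the 7 regions of Ifih1, Ddx58 and Zbp1 in percentage points. All 8 lines rise, by 1.16 to 12.95.

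The Zbp1 gene-end region was the one region at the listed genes that passed the exact test when the lists were brought to a common length, and it was singled out after its values were seen. It was called in 14 of 16 full lists and so entered no pooled test. The best rank of its peaks by area was 15824, 14246 and 17565 for young pre 1 to 3. For old pre 1 to 3 it was 14774, 14465 and 14887, and young pre 4 and old pre 4 had none. Post, the ranks were 13375, 8923, 8388 and 9007 in young and 13794, 13930, 8633 and 11386 in old libraries, so each post rank was smaller than each pre rank. Ranks from lists of different lengths do not by themselves show a change. In young post 2 to 4 and old post 3, the libraries with the 4 best ranks, a single peak of 1284 to 1402 bp covered the region, and elsewhere the best peak was 430 to 776 bp wide. The part of peak joining in the ranks was not tested.

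When every list was shortened to the 14008 strongest peaks, the length of the third shortest, the Zbp1 region had a peak in all 8 post libraries and in 0 of the 8 pre (exact p = 5.43e-04, adjusted p = 0.0433). It was the one region called of 8 tested at the listed genes, beside 0.885% of all 4067 regions tested called as higher post. At this length it was also the one all-or-none region of the list in young, old and pooled libraries, beside 1.56, 1.03 and 0.219% of all regions. The lists of young pre 4 and old pre 4 are shorter than this length and were used whole. The adjusted p ranged from 0.0375 to 0.0986 when each library was left out in turn and stayed under 0.05 only without young pre 4 or old pre 4, so that any of the other 14 libraries ended the call. With the donors as a replicate block the call was also lost (exact p = 0.0370 over 8 pairs, adjusted p = 0.633). All 8 pairs were called post only, the most extreme split toward post that the block allows, so it could not have kept the call. Without the 3 shortest lists the adjusted p was 0.0839, with calls in 7 of 7 post and 0 of 6 pre libraries. The split changed with the length chosen: with 10000 peaks the region was called in 4 post and 0 pre libraries, with 12000 in 5 and 0, with 16000 in 8 and 5, and with 20000 in 8 and 6.

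Around the listed genes, 81 other genes of the interferon pathway were looked at by the same rule, and 76 had a region. A region called in all 16 libraries was present at 22 of the 81, against 14 of the 37 listed genes. They included Tyk2, a kinase attached to Ifnar1, the feedback inhibitors Socs1 and Socs3, the factor Irf3, the sensor adaptor Mavs, and H2-K1, H2-D1, Tapbp, Psmb8 and Psmb9 of antigen presentation. By role these were 6 of 13 receptor and JAK-STAT genes, 3 of 8 genes of the wider IRF family, 2 of 13 sensing adaptors and kinases, 5 of 12 antigen presentation genes and 6 of 35 other induced genes. Of the 215 regions of these genes the exact test called 1, in 1 of the 6 comparisons, out of 48 tested there and beside 0.744% of all regions tested. It was a Socs3 gene-end region (chr11:117965384-117966030), lower in young post than young pre, with calls in 3 of 4 pre and 1 of 4 post libraries (adjusted p = 0.0145). The adjusted p was 0.329 with the donor as a block and 0.545 by Fisher's exact test, though with 4 libraries per side both can hardly pass the adjustment. It was 0.0841, 0.153 and 0.212 without young pre 1, 2 and 3, and 0.0682 and 0.0726 without young post 1 and 4. In old cells the region was called in 1 pre and 1 post library.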

How the data were processed

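Peak lists of 16 ATAC-seq libraries were used as deposited, called separately for each library. Per the submitters' processing notes, FastQC, MultiQC, Trim Galore, cutadapt, Genrich, ChIPseeker, featureCounts and DESeq2 were used on build mm10; their versions and settings, and the aligner, were not given in the sources used here. Columns 7 and 5 of the deposited lists hold a score of the caller (in 7 the significance summed over the peak, and in 5 that area per base times 1000). Columns 8 and 9 of the deposited lists hold -log10 values of the p and q at the summit. These values carry no scaling between libraries. Only presence was compared, and the area was used to rank peaks within a list. No read depth was given, so list length stood in for it and no counting interval is given.

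Of 387029 peaks, 393 (0.102%) outside chromosomes 1 to 19 and X were left out. Peaks overlapping by 1 bp or more were merged, and those with a peak in 2 or more libraries were assigned by the median summit to the nearest of 21631 protein-coding genes of RefSeq GRCm38.p6 within 100 kb. Calls were compared by a two-sided exact conditional test with library weights from a Rasch model fitted within the libraries compared, over regions called in 3 to 5 of 8 or 4 to 12 of 16, with Benjamini-Hochberg adjustment over all of these and a threshold of 0.05. The script was tested on simulated data. Alternatives were shortened lists, other merging, distance and library minimums, Fisher's exact test, the donor block and leaving out each library. Named regions were the 4 with the smallest p per direction and comparison, 1 per gene, of which the text gives the first or the few with the smallest p; every gene is given by its calls.

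The genes, their roles and the lists of other pathway genes and markers were chosen with earlier results of these data known. The labels do not say that libraries of young donor pools came from separate cultures or litters. The p-values give the chance of a split of calls under fixed library weights, with libraries taken as independent. They do not measure the spread between libraries or animals. Pre and post libraries of the same age and number share donors by the series design. The correlation of their deviations from the group means over 15182 regions was -0.0199 to 0.0526 for young and -0.180 to -0.0158 for old donors. Numbers shared between old and young libraries are only names. Python 3.11.15, pandas 2.3.3, numpy 2.4.6, scipy 1.17.1 and matplotlib 3.10.9 were used. Values of some single genes of the pathway and marker lists are not reported here.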

Additional observations from a re-analysis of the deposited data

Results flagged for a closer look

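Of 32 combinations of group and score, 3 held a library that stood apart from the other 3 of its group by Dixon's ratio, and chance alone marks about 1 group in 20. Young pre 1 had a score of -6.81 percentage points for the other induced genes Ifi35, Xaf1 and Sp100 (ratio 0.928). Young post 2 had a score of -9.34 for the receptors (ratio 0.873), where it lacked the Ifnar2 region 35.9 kb from the gene that the other young post libraries called. Young post 3 had a score of 5.79 for the enzymes of ubiquitin, Isg15 and ADP-ribose transfer (ratio 0.843), where it alone of the young post libraries called the Dtx3l region 20.8 kb from the gene.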

How the results depend on the processing

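With lists shortened to the third shortest, the old minus young score was -2.86 post and -3.73 over both stages, the young, old and pooled post against pre comparisons each had 1 all-or-none region, and the pooled one called 1 region (Zbp1). With nothing subtracted, the percent called differed by -5.19 (old minus young, pre), -15.3 (post) and -10.2 (both), and by 23.7 (post minus pre, young), 13.6 (old) and 18.7 (both), as list lengths did. The young post minus pre score was 1.38 on gene ends alone and 1.15 with genes weighted equally; the cause was not tested. Without the 3 shortest lists, chosen after seeing the data, 1 region was all-or-none in old post against pre. The share of all regions with this pattern in that setting was not computed, so the count is not read as a result. Leaving out each library, scores ranged from -4.28 to -2.19, -0.698 to 1.85 and -1.80 to -0.604 for old minus young (pre, post, both) and from -2.60 to -0.969, 0.961 to 3.70 and -0.177 to 1.23 for post minus pre (young, old, both). All-or-none counts ranged from 2 to 6 in young and 0 to 1 in old (1 without old post 4), since fewer libraries loosen the rule. For old cells the share of all regions was not computed in these settings. Member regions numbered 66 to 84 over the alternatives.

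The post minus pre sensor score, singled out after its values were seen, stayed above 0 in 25 of 25 alternatives. It ran from 0.814 (gene ends) to 37.5 (nothing subtracted), at 24.5 with shortened lists and 5.75 to 8.56 with a library left out. All reuse the same libraries, the 37.5 goes with the longer post lists, and the 24.5 comes from other regions than the full-list value. The count is therefore no independent support. With the donor pairs as a replicate block the score differences were unchanged (post minus pre -1.36 in young, 2.23 in old) and 0 member regions were called in each of the 6 comparisons, so on full lists the pairing changed no call given here but that of Socs3. On shortened lists it ended the call of Zbp1 (adjusted p = 0.633). Lists of 5711 to 32557 peaks limit what can be read as absent.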

Other observations

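Mx1 and Mx2, which the gene table lists as pseudogenes, each had 1 region within 1 kb of their span, given to the neighbours Fam3b and Tmprss2 and called in 11 and 14 libraries.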
